A study of Mus musculus with 22 samples.

Results

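Interferon response genes are the genes that cells switch on when type I interferon binds its receptor. A set of 35 such genes was followed through 22 libraries of poly(A) RNA from mouse cells and tissues. The genes were taken by name, with earlier results of these data known. All 35 were among the 24911 genes of the deposited files, and 34 were above 0 in at least 1 library. The exception, Mx2, was listed at 0 in all 22 libraries and is counted in no result below. The RefSeq annotation of GRCm38.p6 types both Mx2 and Mx1 as transcribed pseudogenes.

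Every label had a single library. The B lineage was represented by CH12, a mouse B lymphoma line grown in culture (clone bc5), by 6 cultures of activated B cells, and by splenic B cells. Of the cultures 4 held LPS (lipopolysaccharide, which Toll-like receptor 4 senses), given alone or as LPS+IL4, LPS+IL21 or LPS+a-d-dextran by label. The cultures without it were labelled aBCD180 and aCD40+IL4. IL4 and IL21 are cytokines made by helper T cells. Mature B cells came from spleens of C57BL/6J mice by negative selection. The T lineage was represented by CD4+ cells activated with the mitogen ConA (concanavalin A) and by 4 populations with a MUT and an unmarked library each. These populations were follicular helper cells (Tfh), activated non-Tfh cells sorted as CXCR5-, PD1- and CD25-, follicular regulatory cells (Tfr), and CD4+ cells with no further sort named. Back skin, basophils and 3 brain regions (sensorimotor cortex, medulla oblongata and putamen) made up the rest. The labels do not say which gene or allele MUT stands for, nor the age, the sex, the dose or the time of any culture, and the strain is named for the B cells only. Nothing in them gives each library its own animal, and p-values therefore reflect only how far these samples spread, which may be technical. In the tests below that spread also holds differences between the other stimuli of the B cell cultures. In the T cells it also holds disagreement between the populations' MUT and unmarked pairs.

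Total expected counts per library ran from about 30800000 (LPS) to about 147900000 (ConA), with a median of about 46200000. Summed over 8 genes, B cell markers stood at 12170 TPM in splenic B cells, between 2398 and 8740 TPM in the cultures and at 2208 TPM in CH12. TPM is a transcript level scaled to transcript length and to depth. The 8 T cell markers summed to 3199 TPM in the ConA library and to between 4498 and 7255 TPM in the other 8 T cell libraries. Of the follicular helper markers, Cxcr5 (MUT library first in each pair) was at 451.7 and 268.2 TPM in Tfh, 155.0 and 166.5 TPM in Tfr, 57.9 and 75.9 TPM in non-Tfh and 9.08 and 6.29 TPM in CD4+. Foxp3, the factor of regulatory T cells, was at 579.3 and 433.1 TPM in Tfr MUT and Tfr, 69.2 and 142.8 TPM in Tfh MUT and Tfh, and at most 17.8 TPM in the non-Tfh and CD4+ libraries. B cell markers set the Tfh MUT library (711 TPM) and the unmarked Tfr library (510 TPM) apart from the other 6 sorted or unstimulated T cell libraries (93.4 to 182 TPM). Macrophage and monocyte markers summed to 2770 TPM in basophils and to 400.1 TPM in splenic B cells, against 17.0 to 70.3 TPM in the 6 cultures. Y-linked transcripts were present in the splenic B, LPS+IL21, ConA, basophil, putamen, medulla and skin libraries (Ddx3y at 27.3 TPM or more) and near 0 in the other 15 (Ddx3y at most 0.11 TPM). The splenic B, LPS+IL4, ConA and CH12 libraries had another offset between transcript length and effective length than the other 18, and no member was at 0 in all 4 of them and above 0 in every other library.

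Type I interferons signal through the receptor subunits IFNAR1 and IFNAR2 and the kinases JAK1 and TYK2. These phosphorylate STAT proteins, which join IRF9 to form the complex ISGF3. ISGF3 binds the interferon-stimulated response element, a repeat of the letters GAAA, in the promoters of the response genes. The products sense viral nucleic acids, block translation of viral RNA, degrade RNA or mark proteins with the ubiquitin-like ISG15, and IRF7 and IRF9 are themselves products of the response.

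The core of that element, GAAA, any 2 bases and GAAA again, was searched on both strands in the RefSeq promoters of GRCm38.p6, each from 250 bases before to 50 bases after an annotated start. It was found in 11 of the 25 members with an entry (44.0%) and in 3.99% of all 27025 genes with an entry. The stricter form with T as the second of those bases, whose matches all lie within those of the core, was in 20.0% of the members and in 0.932% of all genes. TTCNNNGAA, the core of the gamma-activated site of interferon gamma targets, was in 24% of the members and in 9.55% of all genes. The 11 members with the core were Bst2, Ddx58, Eif2ak2, Ifih1, Ifit1, Ifit3, Isg15, Oas1a, Oas3, Rsad2 and Trim30a. A match is a run of letters and not a measured site, and the search says nothing of members without one. The 5 promoters printed here are those upstream matches that belong to genes with large differences below. Capitals mark each match, read on the opposite strand (as TTTC repeats) in Ifit1 and Ifit3, and overlapping matches form 1 run.

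Isg15: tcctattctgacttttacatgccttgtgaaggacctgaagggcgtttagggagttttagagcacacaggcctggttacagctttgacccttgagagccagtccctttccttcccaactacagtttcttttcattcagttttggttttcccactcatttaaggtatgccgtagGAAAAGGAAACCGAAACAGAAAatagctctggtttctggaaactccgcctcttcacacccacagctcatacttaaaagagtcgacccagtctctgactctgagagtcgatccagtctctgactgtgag
Ifit1: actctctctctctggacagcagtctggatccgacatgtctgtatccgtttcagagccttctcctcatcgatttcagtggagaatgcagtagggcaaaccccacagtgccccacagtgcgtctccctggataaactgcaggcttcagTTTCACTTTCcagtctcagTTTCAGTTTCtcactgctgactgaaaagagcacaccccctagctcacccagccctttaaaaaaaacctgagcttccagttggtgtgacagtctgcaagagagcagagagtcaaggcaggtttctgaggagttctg
Ifit3: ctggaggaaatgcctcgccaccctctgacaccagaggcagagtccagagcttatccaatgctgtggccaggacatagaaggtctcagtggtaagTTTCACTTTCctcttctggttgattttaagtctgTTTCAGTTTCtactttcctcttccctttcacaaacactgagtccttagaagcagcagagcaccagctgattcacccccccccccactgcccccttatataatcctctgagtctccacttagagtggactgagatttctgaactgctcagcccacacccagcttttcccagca
Oas1a: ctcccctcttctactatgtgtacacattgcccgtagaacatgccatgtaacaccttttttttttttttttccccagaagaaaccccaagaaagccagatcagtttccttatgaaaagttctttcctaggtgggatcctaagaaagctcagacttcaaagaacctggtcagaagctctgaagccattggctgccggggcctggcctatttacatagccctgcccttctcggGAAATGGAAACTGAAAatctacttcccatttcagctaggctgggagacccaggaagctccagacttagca
Oas3: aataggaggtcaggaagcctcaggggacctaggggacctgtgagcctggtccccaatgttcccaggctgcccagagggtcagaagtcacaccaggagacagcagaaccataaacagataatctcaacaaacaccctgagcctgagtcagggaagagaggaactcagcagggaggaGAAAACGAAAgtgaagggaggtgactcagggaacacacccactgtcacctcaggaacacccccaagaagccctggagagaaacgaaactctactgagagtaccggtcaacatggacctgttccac

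The Isg15 promoter lies at chr4:156200769-156201068 on the minus strand and holds 3 overlapping matches, the first beginning at position -78 from the start. Ifit1 (chr19:34640639-34640938, plus strand) has matches at -104 and -85, and Ifit3 (chr19:34583279-34583578, plus strand) at -156 and -122. Those of Oas1a (chr5:120907476-120907775, minus strand) begin at -20 and -14, and that of Oas3 (chr5:120777610-120777909, minus strand) at -75. Several members are neighbours: all 5 Oas and Oasl members lie on chromosome 5, the 3 Ifit members on chromosome 19, and 6 members, among them Parp9, Dtx3l and Parp14, on chromosome 16. Parp9 and Dtx3l are transcribed divergently from overlapping positions, and their expected counts were not whole numbers in any of the 22 libraries. The same held for Oas1a, Trim30a and Tap1, and in 20 libraries for Ifit1 and Ifit3, so reads of these 7 genes were divided with other genes and their levels are less certain.

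The set differed widely between libraries. The median level of the 34 members was 89.6 TPM in basophils, between 36.5 and 60.1 TPM in the 8 MUT and unmarked T cell libraries, and 27.0 TPM in splenic B cells. It was 34.7 TPM in LPS+IL21, 25.9 in LPS+IL4, 17.3 in LPS and 8.43 in LPS+a-d-dextran, against 7.74 in aCD40+IL4 and 3.23 in aBCD180. ConA-activated T cells stood at 10.8 TPM, back skin at 4.96, CH12 at 3.56 and the 3 brain regions at 1.32 to 2.52 TPM. With 1 library per label, neighbours in this order cannot be ranked against replicate error. The medians of all genes were 5.59 TPM in skin and 7.75 to 8.56 TPM in brain, against 1.25 to 4.13 TPM in the cell libraries. Skin and brain had 13217 to 14045 genes at 1 TPM or more, and the cell libraries 10288 to 11407. As TPM are scaled to the library total, these medians cannot show whether all genes were lower or higher. In tissue and sorted cells alike, fewer cells of a type and less RNA per cell cannot be told apart.

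**Figure D1:**
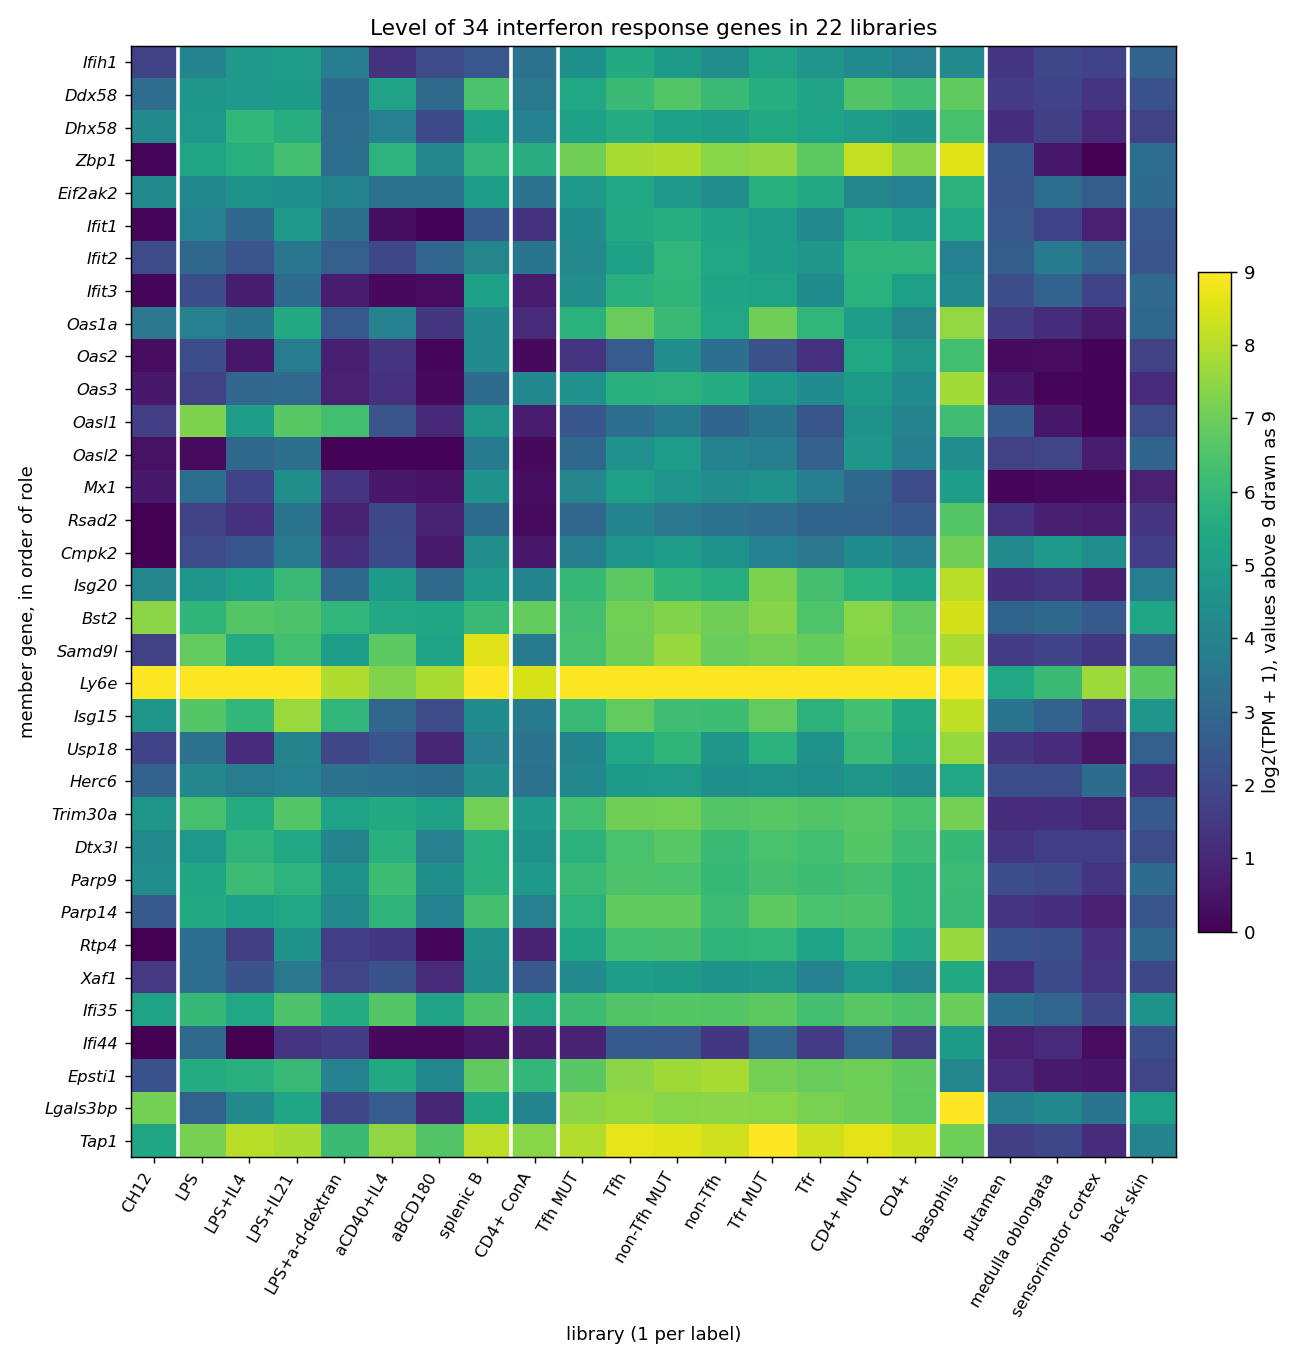
Level of each of the 34 members (rows, in order of role) in each of the 22 libraries (columns, 1 per label), as log2(TPM + 1), with values above 9 drawn as 9 and white lines between kinds of sample. Basophils and the MUT and unmarked T cell libraries are bright over most rows, the 3 brain regions and CH12 are dark, and among the cultures aBCD180 (median 3.23 TPM) is darker than LPS+IL21 (median 34.7 TPM).

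Basophils, granulocytes known for IgE-driven type 2 responses, held the highest level of 20 of the 34 members (58.8%), against 7.63% of 13896 genes with a TPM of at least 10 somewhere. All 34 members reached 10 TPM there. Lgals3bp, a secreted glycoprotein that binds galectins, stood at 906.9 TPM, against at most 191.5 TPM in any other library. Oas3, a synthase of the 2-5A messenger that activates RNase L, stood at 214.7 TPM in basophils, against at most 54.3 TPM elsewhere. Rsad2 (viperin), which makes a chain-terminating ribonucleotide, reached 96.6 TPM and its neighbour Cmpk2, a mitochondrial nucleotide kinase, 132.5 TPM, against at most 15.6 and 30.04 TPM elsewhere. Irf7, the interferon-induced factor that amplifies interferon gene transcription, was at 467.3 TPM in basophils and at most 186.3 TPM in the other libraries. Basophil markers were high (Mcpt8 at 12997 TPM), but so were macrophage and monocyte markers, with Lyz2 at 1366, Ly6c2 at 1031 and Adgre1 at 277.8 TPM while C1qa (0.67 TPM) and C1qb (0.59 TPM) were near 0. Their part in the interferon response levels was not tested.

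In the brain regions and skin most members were low, with 3 or 4 of the 34 at 10 TPM or more in each brain region and 7 in skin. Cmpk2 was an exception in brain, at 18.2 TPM in putamen, 28.2 in medulla and 20.2 in cortex, against 0.56 to 11.5 TPM in the 6 B cell cultures. Ly6e, a membrane protein known to restrict the entry of some viruses, reached 39.7 TPM in putamen, 69.0 in medulla and 205.3 in cortex. Among the 34 members Ly6e had the highest median level over all libraries, 1047 TPM. Ifi44, a cytosolic protein of the response, had the lowest, 1.64 TPM. The interferon genes themselves were close to 0: the highest of 9 type I and III interferon genes in any library was Ifnk, at 0.74 TPM in LPS+IL4, and Ifnb1 reached 0.32 TPM in basophils. None of these 9 genes passed the filter on low counts in either fitted set of libraries.

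The first comparison set the 4 cultures with LPS against the 2 without, aCD40+IL4 (antibody to CD40) and aBCD180 (by its name an antibody to CD180, a relative of Toll-like receptor 4). Isg15 was at 99.0 TPM in LPS, 61.5 in LPS+IL4, 201.2 in LPS+IL21 and 59.6 in LPS+a-d-dextran, against 6.79 TPM in aCD40+IL4 and 3.22 TPM in aBCD180. Every LPS culture was thus above both others, and LPS+IL21 was the highest. Ifit1, which binds viral RNA that lacks the host cap methylation, was at 14.7, 7.31, 27.9 and 9.03 TPM in the LPS cultures in the same order, against 0.25 TPM in aCD40+IL4 and 0.07 TPM in aBCD180. The last of these rests on 4 counts and the one before on 14. Oasl1, a 2-5A synthase-like protein that in mice represses translation of IRF7, was at 153.7, 30.9, 103.8 and 76.8 TPM in the LPS cultures, against 4.22 TPM in aCD40+IL4 and 0.99 TPM in aBCD180.

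The log2 fold change, from edgeR's quasi-likelihood fit with a term for IL4, was 6.55 ± 1.09 (SE) for Ifit1, 5.13 ± 1.09 for Oasl1 and 4.48 ± 0.86 for Isg15, and none passed the test over all genes (edgeR adjusted p = 0.738, 0.749 and 0.746). All 34 members passed the filter on low counts in this fit and in those of the T cells below. Of them 0 were called, as were 0.0% of all 12515 genes. By unadjusted p under 0.05, edgeR counted 12 members and 4.05% of all genes. DESeq2 called 147 genes, 9 of them members and all higher with LPS: Dhx58, Eif2ak2, Ifih1, Ifit1, Isg15, Mx1, Oas3, Oasl1 and Oasl2. limma on log2(TPM + 1) called 0 members. All 34 fitted fold changes were positive, from 0.15 (Ifi35) to 6.82 (Oasl2), with a median of 1.56, while the median of all genes was at 0.

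In TPM, 12 of the 34 members (35.3%) were higher in every LPS culture than in both others, against 3.43% of the 12515 genes, and 0 were lower in every LPS culture, against 6.92%. Among them was Ifih1 (MDA5), a sensor of long double-stranded RNA, at 15.3, 28.5, 30.7 and 13.5 TPM in LPS, LPS+IL4, LPS+IL21 and LPS+a-d-dextran, against 1.49 TPM in aCD40+IL4 and 3.24 TPM in aBCD180 (log2 fold change 3.36 ± 0.64). Eif2ak2 (PKR), a kinase that halts translation on binding double-stranded RNA, had a narrower gap, 15.8 to 23.4 TPM with LPS against 9.35 and 9.13 TPM without. The others were Ifit3, Oasl2, Mx1, Bst2 (tetherin, which holds budding virions at the cell surface), Ly6e, the ISG15 ligase Herc6, and Rtp4, a chaperone of chemosensory receptors. For Ly6e and Herc6 the gap was small: the lowest LPS culture had 242.5 and 9.30 TPM, against 230.0 and 8.70 TPM in the higher of the others.

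**Figure D2:**
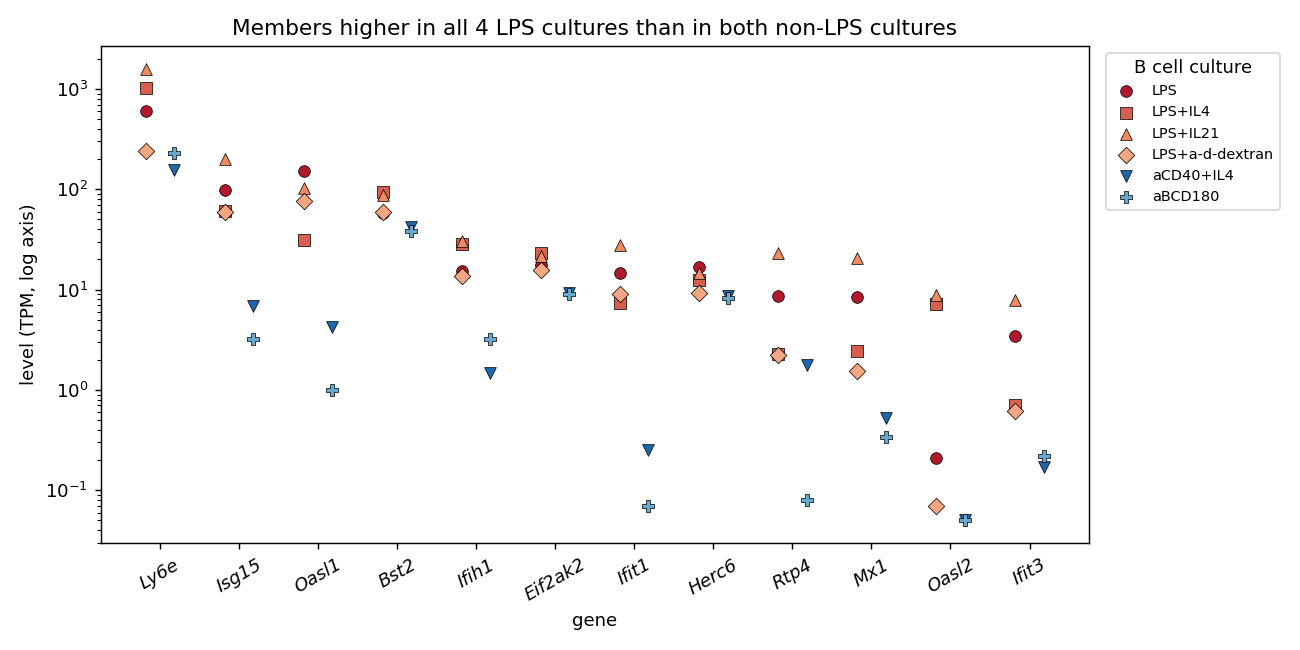
Level in TPM (log axis) of the 12 members that were higher in all 4 LPS cultures (reds, left) than in both non-LPS cultures (blues, right), 1 point per culture. The gap is wide for Isg15, Oasl1, Ifih1 and Ifit1 (Isg15 at 59.6 TPM or more, against at most 6.79 TPM) and narrow for Ly6e, Bst2 and Herc6.

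The LPS cultures also differed among themselves. Oasl2 was at 0.21 TPM in LPS, 7.16 in LPS+IL4, 8.92 in LPS+IL21 and 0.07 in LPS+a-d-dextran, against 0.05 TPM in both aCD40+IL4 and aBCD180. The LPS and LPS+a-d-dextran values rest on 10 and 4 counts and those without LPS on 3 each, so only LPS+IL4 and LPS+IL21 stood clear. Mx1 was at 8.42, 2.47, 20.7 and 1.53 TPM in the LPS cultures, against 0.52 and 0.34 TPM (30 and 22 counts) in aCD40+IL4 and aBCD180. Rtp4 was at 8.65, 2.27, 23.0 and 2.22 TPM with LPS, against 1.77 TPM in aCD40+IL4 and 0.08 TPM in aBCD180. The gap of Rtp4 was thus narrow against aCD40+IL4 and wide against aBCD180, where it had 3 counts. Oas3 was at 2.35, 6.91, 7.37 and 0.78 TPM with LPS, against 1.45 and 0.17 TPM without, the last on 18 counts. Ifit3 was at 3.41, 0.70, 7.92 and 0.62 TPM with LPS, the last on 25 counts, against 0.17 and 0.22 TPM without (7 and 10 counts). The groups overlap for Oas3 and not for Ifit3.

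LPS+IL21 was the highest of the 4 LPS cultures for 23 members (67.6%), against 15.9% of all genes, and LPS+a-d-dextran the lowest for 26 (76.5%), against 28.1%. The aBCD180 culture was the lowest of all 6 for 22 members (64.7%), against 7.32%. The LPS+IL21 library was also the only culture with Y-linked transcripts, and the part of this in its high rank was not tested. LPS+IL4 was above aCD40+IL4, the pair with IL4 in common, for 22 members (64.7%), against 39.9%. Ifih1 (log2 difference of TPM + 1, 3.57), Oasl2 (2.96) and Isg15 were among the leaders of that pair, while Usp18, the protease that removes ISG15 and damps receptor signalling, was lower in LPS+IL4 (-1.28). Members that sense DNA or RNA did not all share the LPS pattern: Zbp1, a sensor of Z-form nucleic acids, was at 55.3 TPM in aCD40+IL4, above 3 of the 4 LPS cultures.

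No gene of the pathway lists was called. Of the 7 genes of receptor and signalling 0 were called, with a median log2 fold change of 0.18, of 12 genes of interferon induction 0 (median -0.11), of 5 of the interferon gamma axis 0 (0.28) and of 9 of class I presentation 0 (0.08). By unadjusted p under 0.05, edgeR counted 1 of these pathway genes, in the induction list. Irf7 was at 24.3, 10.46, 42.03 and 3.57 TPM in LPS, LPS+IL4, LPS+IL21 and LPS+a-d-dextran, against 11.6 TPM in aCD40+IL4 and 0.88 TPM in aBCD180, and overlapped (log2 fold change 2.62 ± 1.86, edgeR adjusted p = 0.961).

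Set against splenic B cells, most members were lower in the mean over the 6 activated cultures, but few met the rule below. With a single splenic library there is no test, so a rule of size was used: log2(TPM + 1) had to differ by at least 1 from every culture in 1 direction, with at least 10 TPM on the higher side. Of 32 members that reached 10 TPM in the comparison, 0 met the rule as higher in the cultures, against 2.46% of 9306 genes, and 3 as lower, against 5.10%. These were Ddx58 (RIG-I), a sensor of RNA with a 5' triphosphate, at 7.64 to 35.7 TPM in the cultures against 85.7 TPM in splenic B, Ifit3 (0.17 to 7.92 against 33.7 TPM) and Samd9l (31.1 to 114.7 against 385.0 TPM). The mean difference was negative for 28 of the 32, with a median of -1.34, against -0.21 over all genes. The share of all genes with a negative mean difference was not counted. Oasl1 went either way, at 0.99 to 153.7 TPM in the cultures against 26.0 TPM in splenic B, as did Isg15 (3.22 to 201.2 against 19.7 TPM) and Ifit1 (0.07 to 27.9 against 4.84 TPM). Irf7 was at 0.88 to 42.03 TPM in the cultures and 52.2 TPM in splenic B.

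LPS+IL21 narrowed this comparison: without it 12 of 31 members were lower in the cultures, against 5.88% of all genes. Taken alone, a choice made after seeing the data, LPS+IL21 was higher than splenic B for 6 of 32 members (9.98% of all genes) and lower for 3 (23.5%). LPS+IL4 alone was higher for 2 of 30 members (12.4% of all genes) and lower for 16 (24.1%). The splenic library held macrophage transcripts that the cultures lacked, with C1qa at 0.54 TPM or less in the cultures against 79.7 TPM, Csf1r at most 0.59 against 60.5 TPM and Lyz2 at most 11.6 against 97.7 TPM. Their part in the members' levels was not tested. Of the 7 receptor and signalling genes 0 met the rule, of 11 induction genes with enough signal Tlr3 and Tlr4 did as lower, and of 4 interferon gamma axis genes Ifngr1 did as lower.

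CH12 cells had negative mean differences from the activated cultures for 24 of 30 members, and the matching share of all genes was not counted. By the rule of size 1 met the rule as higher (3.33%), against 6.00% of 9416 genes, and 3 as lower (10.0%), against 2.18%. Lgals3bp was the higher gene, at 139.7 TPM in CH12 against 0.89 to 38.6 TPM in the cultures. Samd9l, which restricts growth and viral translation, was at 2.41 TPM in CH12 against 31.1 to 114.7 TPM. Parp14, an ADP-ribosyltransferase, was at 4.66 TPM in CH12 against 14.4 to 57.1 TPM, and Epsti1, an interferon-induced gene of epithelium and stroma, at 3.85 against 14.8 to 67.3 TPM. Rsad2, Cmpk2, Rtp4 and Ifi44 had 0 counts in CH12, although the cultures had at least 65, 41, 3 and 3 counts of them. Zbp1 had 5 counts (0.08 TPM) in CH12 against 8.55 to 78.2 TPM, and missed the rule because LPS+a-d-dextran was under 10 TPM. Bst2 (171.7 TPM in CH12 against 38.6 to 94.5 TPM) and Ly6e (1213 against 156.4 to 1599 TPM) stayed high, and Isg15 was at 26.4 TPM in CH12 against 3.22 to 201.2 TPM. The median of the mean differences was -1, against -0.03 over all genes. Among receptor and signalling genes Jak1 and Stat2 met the rule as lower, 2 of 7.

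ConA-activated CD4+ T cells were compared by the same rule of size with the CD4+ MUT and CD4+ libraries, and most members were lower. Of 31 members with enough signal 0 were higher than in both CD4+ libraries, against 11.0% of 8696 genes, and 23 were lower (74.2%), against 19.5%. Rtp4 was at 0.82 TPM in ConA, against 68.4 TPM in CD4+ MUT and 42.4 TPM in CD4+. Oas2 was at 0.16 TPM in ConA, against 40.0 TPM in CD4+ MUT and 26.4 TPM in CD4+. Ifit3 was at 0.59 TPM in ConA, against 52.7 TPM in CD4+ MUT and 33.9 TPM in CD4+. These values rest on 108, 54 and 99 counts in the ConA library, the deepest of the series. Oasl2 (0.18 TPM in ConA against 25.3 and 13.9), Ifit1 (1.5 against 41.8 and 30.5), Oasl1 (0.65 against 23.4 and 15.1) and Cmpk2 (0.53 against 19.9 and 13.3) followed, each low in ConA by a log2(TPM + 1) difference of at least 3. Oas1a (1.09 TPM in ConA against 31.4 and 15.9) and Samd9l (11.6 against 160.0 and 124.9) completed the members past that size.

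**Figure D3:**
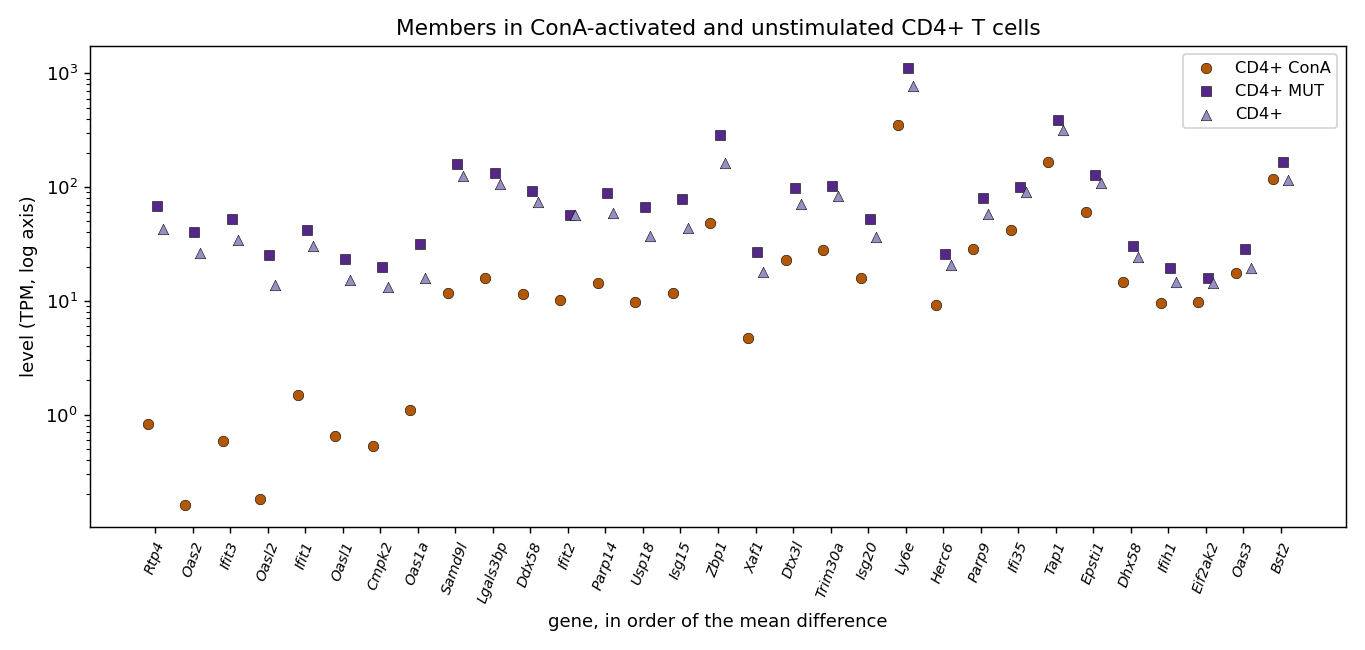
Level in TPM (log axis) of the 31 members with at least 10 TPM in any of the ConA, CD4+ MUT and CD4+ libraries, 1 point per library, in order of the mean difference. At the left, the 7 genes from Rtp4 to Cmpk2 lie at or under 1.5 TPM in ConA and above 13 TPM in both others, and at the right Bst2 lies between the other libraries.

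The differences were uneven. Ifit2, which lies beside Ifit1 and Ifit3 on chromosome 19, was at 10.2 TPM in ConA, against 56.4 and 56.6 TPM in CD4+ MUT and CD4+, and Isg15 at 11.7 TPM in ConA, against 77.7 and 43.2 TPM. Oas3, in the same cluster as Oas2 and Oas1a, was at 17.52 TPM in ConA, against 28.6 and 19.4 TPM. The 8 members that missed the rule were Oas3, Bst2, Ifih1, Dhx58, Eif2ak2, Parp9, Epsti1 and Tap1, and all of them had negative mean differences too. Over the 31 members the median was -2.16, against -0.33 over all genes. Of the receptor and signalling genes 4 of 7 were lower: Irf7 (11.4 TPM in ConA against 173.6 in CD4+ MUT and 136.6 in CD4+), Irf9 (31.4 against 162.6 and 137.0), Jak1 and Stat2. Ifnar1 (57.7 TPM in ConA against 70.1 and 65.8) and Ifnar2 (85.0 against 59.9 and 52.6) did not meet it. Of 9 class I presentation genes 4 were lower, Tap2, Tapbp, Psmb10 and Nlrc5, and of 4 interferon gamma axis genes Irf1.

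The ConA library also differed from the CD4+ libraries in ways other than the stimulus. It carried Y-linked transcripts and the other length offset, which the CD4+ libraries did not, and its B cell markers summed to 6.14 TPM, against 99.4 TPM in CD4+ MUT and 93.4 TPM in CD4+. These differences and the stimulus cannot be told apart.

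The MUT libraries were compared with the unmarked ones over all 4 T cell populations. No member was called: 0 of 34 by edgeR with a term for population, against 0.0% of 13064 genes. By unadjusted p under 0.05 the count was 0 members, against 1.47% of genes, DESeq2 called 2 genes and 0 members, and limma 0. The fitted log2 fold changes ran from -0.05 (Epsti1) to 0.80 (Ifi44), with a median of 0.18, against 0.00 for all genes. This average covered opposite directions. In non-Tfh cells 32 of 34 members were higher in the MUT library, with a median log2(TPM + 1) difference of 0.43, in Tfr cells all 34 (median 0.48) and in CD4+ cells 33 (median 0.52). In Tfh cells 0 of 34 were higher, and the median difference was -0.80. Over all genes these medians were 0.03, -0.10, -0.03 and, in Tfh, -0.04. The shares of all genes higher with MUT were 56.9% in non-Tfh, 34.7% in Tfr, 38.7% in CD4+ and 45.9% in Tfh. The full pattern, higher with MUT in the other 3 populations and lower in Tfh, held for 31 members (91.2%), against 8.01% of all genes, with Ifit2, Epsti1 and Lgals3bp as exceptions.

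**Figure D4:**
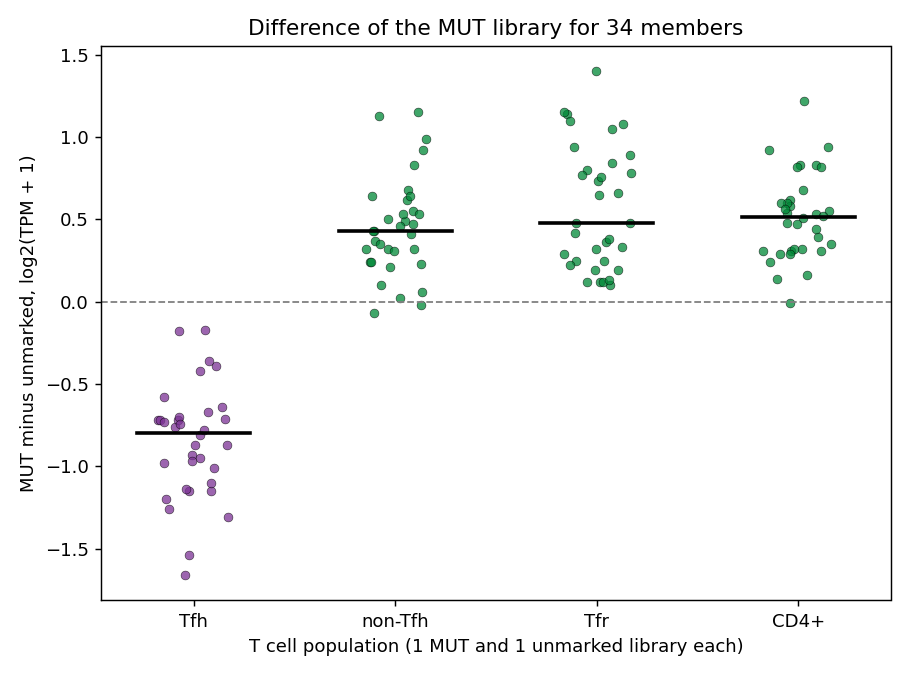
Difference of log2(TPM + 1), MUT minus unmarked, for the 34 members in each T cell population (1 point per member, bar at the median, 1 library per label). All points of Tfh lie below 0 (median -0.80), and those of non-Tfh, Tfr and CD4+ lie above 0 (medians 0.43, 0.48 and 0.52) apart from 3 points just under it.

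Whether the MUT difference in Tfh cells departed from that in the other 3 populations was tested as an interaction in an edgeR fit of the same 8 libraries, which leaves few degrees of freedom for the error. This contrast singles out the population whose pair ran opposite and was chosen with earlier results of these data known. The Tfh difference in it is 1 library against 1 and is fitted exactly, so the error comes from the other 3 pairs alone. The interaction was called for 14 of the 34 members (41.2%), all with negative estimates, against 0.731% of 13534 genes in either direction and 0.613% with negative estimates. By unadjusted p under 0.05 there were 33 members, against 23.7% of genes. Ifi44 had the largest estimate, -4.16 ± 0.47 (SE, edgeR adjusted p = 0.0258). It was at 0.86 TPM in Tfh MUT against 4.88 in Tfh, 4.39 in non-Tfh MUT against 1.72 in non-Tfh, 6.73 in Tfr MUT against 1.93 in Tfr, and 6.56 in CD4+ MUT against 2.24 in CD4+. The Tfh pair ran opposite to all 3 others. Usp18 gave -2.52 ± 0.26 (edgeR adjusted p = 0.0226), with 15.7 TPM in Tfh MUT against 40.4 in Tfh, 58.4 in non-Tfh MUT against 26.1 in non-Tfh, 53.2 in Tfr MUT against 23.4 in Tfr, and 66.3 in CD4+ MUT against 37.1 in CD4+.

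All of the Oas and Oasl members except Oasl1 were among those called. Oasl2, which like Oasl1 carries ubiquitin-like domains, gave -2.77 ± 0.28, with 7.12 TPM in Tfh MUT against 22.6 in Tfh, 29.6 in non-Tfh MUT against 15.2 in non-Tfh, 13.4 in Tfr MUT against 5.73 in Tfr, and 25.3 in CD4+ MUT against 13.9 in CD4+. Oas2, a 2-5A synthase, gave -2.76 ± 0.39, with 1.62 TPM in Tfh MUT against 5 in Tfh, 20.6 in non-Tfh MUT against 8.72 in non-Tfh, 3.66 in Tfr MUT against 1.43 in Tfr, and 40.0 in CD4+ MUT against 26.4 in CD4+. Oas1a gave -2.20 ± 0.28 and Oas3 -1.69 ± 0.24. Both genes had the same order within every pair as Oas2. Oasl1 had a similar estimate, -2.02, with a wider error of 0.38 (edgeR adjusted p = 0.0842).

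Of the Ifit genes, Ifit3 (-2.09 ± 0.24) and Ifit1 (-1.79 ± 0.25) were called and Ifit2 (-1.35 ± 0.24, edgeR adjusted p = 0.0804) was not. Ifit3 was at 20.6 TPM in Tfh MUT against 50.9 in Tfh, and Ifit1 at 19.6 against 44.6, while in the other 3 pairs each was higher in the MUT library. Rtp4 (-1.76 ± 0.24), Zbp1 (-1.69 ± 0.22), Parp14 (-1.62 ± 0.17), Ifih1 (-1.56 ± 0.19), Ddx58 (-1.27 ± 0.17) and Trim30a (-1.15 ± 0.17), the last a ubiquitin ligase of mice, made up the rest. Isg15 had the widest error after Ifi44 and was not called (-1.48 ± 0.46, edgeR adjusted p = 0.134). It was at 67.6 TPM in Tfh MUT against 112.1 in Tfh, 75.5 in non-Tfh MUT against 72.4 in non-Tfh, 114.3 in Tfr MUT against 54.7 in Tfr, and 77.7 in CD4+ MUT against 43.2 in CD4+. The non-Tfh pair hardly differed.

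**Figure D5:**
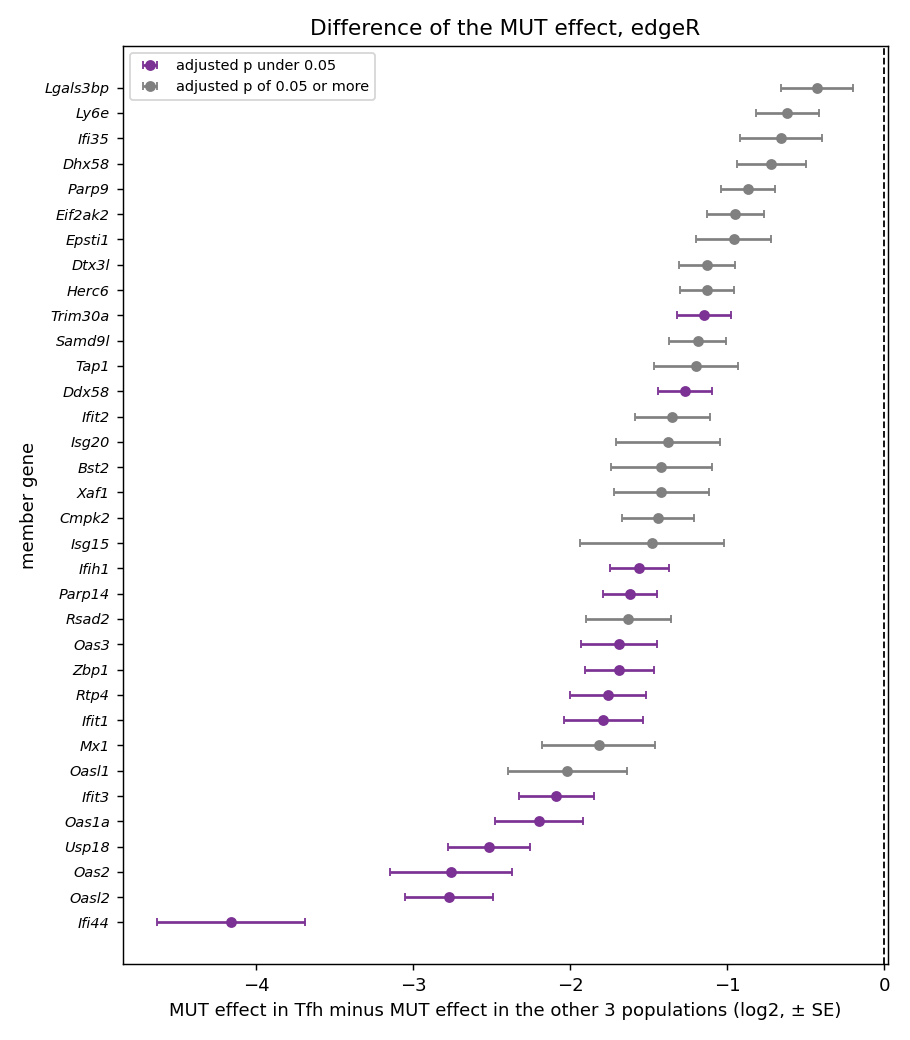
Interaction estimate of each member, the MUT effect in Tfh minus that in the other 3 populations (log2, with SE), sorted by size. All 34 lie below 0, from -0.43 (Lgals3bp) to -4.16 (Ifi44), and the 14 with an edgeR adjusted p under 0.05 are in purple.

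In the pathway lists the same term called Nlrc5, the transactivator of class I genes (-1.49 ± 0.18, edgeR adjusted p = 0.0304), among the 9 of class I presentation. All 9 had an unadjusted p under 0.05 by edgeR and negative estimates (median -0.77). It called 0 of 7 receptor and signalling genes, 0 of 12 induction genes and 0 of 5 of the interferon gamma axis, where edgeR counted 7, 7 and 5 by unadjusted p under 0.05. Of those counted, Tlr9 (2.37 ± 0.77), Ticam2 (0.97 ± 0.40), Tlr7 (0.95 ± 0.35) and Ifngr2 (2.35 ± 0.43) had positive estimates, opposite to the members, and the others negative ones. Irf7 was at 101.7 TPM in Tfh MUT against 163.4 in Tfh, 186.3 in non-Tfh MUT against 175.1 in non-Tfh, 130.2 in Tfr MUT against 77.2 in Tfr, and 173.6 in CD4+ MUT against 136.6 in CD4+ (-1.16 ± 0.33, not called). Ifng, the type II interferon gene, was at 30.5 TPM in Tfh MUT against 133.0 in Tfh.

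The count of 14 depended on the libraries fitted: it was 0 without the non-Tfh MUT or the non-Tfh library, where 0.037% of all genes were called, and 32 without the Tfr MUT or the Tfr library, where 19.5% and 19.6% were. These 4 runs were chosen after seeing the data. DESeq2 called 31 members and 9.21% of all genes, and limma 9 members and 0.467%. Summed B cell markers moved with the pairs, at 711 TPM in Tfh MUT against 182 in Tfh, 120.4 in non-Tfh MUT against 114.4 in non-Tfh, 144.3 in Tfr MUT against 510.1 in Tfr, and 99.4 in CD4+ MUT against 93.4 in CD4+. No B cell marker was at 0 in any of the 8 libraries, and the interaction called 0 of the 8 markers (median 2.81, 7 by unadjusted p). It called 0 of the 8 T cell markers too, with a negative median like the members (-0.54, 4 by unadjusted p). The T cell markers summed to 5576 TPM in Tfh MUT against 7255 in Tfh, and 5715 in Tfr MUT against 4870 in Tfr. In the other pairs they summed to 5295 in non-Tfh MUT against 5371 in non-Tfh, and 4745 in CD4+ MUT against 4498 in CD4+. Members were lower in the library with more B cell transcripts both in Tfh, where that was the MUT library, and in Tfr, where it was the unmarked library. The part of these transcripts in the members' differences was not tested. In the CD4+ and non-Tfh pairs, whose B cell marker sums were close, 33 and 32 members were higher with MUT. Of all genes 38.7% and 56.9% were. When Tfh MUT and Tfr were left out, a choice made after seeing the data, the MUT term called 22 members, all higher, and 3.57% of all genes. The members were led by Ifi44 (1.45 ± 0.18), Usp18 (0.99 ± 0.11), Oas2 (0.90 ± 0.13) and Oasl2 (0.90 ± 0.11). That fit gives the lone Tfh library and the lone Tfr MUT library population terms of their own. Its MUT term therefore rests on the CD4+ and non-Tfh pairs alone, whose directions had already been seen. Few degrees of freedom are left for its error, and the direction of its calls adds nothing to those pairs. Without both Tfh libraries the MUT term called 1, Usp18 (1.11 ± 0.12, edgeR adjusted p = 0.0397), and 0.193% of all genes.

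Between T cell populations the set did not move as a block. These 3 comparisons share the CD4+ libraries (n = 2 libraries per side, MUT and unmarked). In non-Tfh against CD4+ cells 0 of 34 members were called, against 3.85% of genes, with 2 members and 15.2% of genes at an unadjusted p under 0.05 by edgeR. DESeq2 called 1 member, Mx1, and 9.15% of genes. In Tfh against CD4+ cells 4 were called (11.8%), against 26.4% of genes, 15.3% as higher and 11.2% as lower. Mx1 rose by 2.10 ± 0.54 (25.5 ± 12.0 TPM in Tfh and 5.35 ± 2.76 TPM in CD4+, SD) and Eif2ak2 by 0.91 ± 0.26 (34.5 ± 9.98 TPM in Tfh and 15.2 ± 1.08 TPM in CD4+). Oas2 fell by 3.45 on the log2 scale (3.31 ± 2.39 TPM in Tfh and 33.2 ± 9.60 TPM in CD4+) and Ifit2 by 1.40 (26.1 ± 11.9 TPM in Tfh and 56.5 ± 0.19 TPM in CD4+). Oas1a, of the same gene cluster, was not called and was at 85.3 ± 46.2 TPM in Tfh and 23.7 ± 11.0 TPM in CD4+ (1.74 ± 0.60, edgeR adjusted p = 0.0805).

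In Tfr against CD4+ cells 4 were called (11.8%), against 30.4% of genes, 16.8% as higher and 13.6% as lower. Eif2ak2 rose by 1.35 ± 0.26 (47.7 ± 4.45 TPM in Tfr and 15.2 ± 1.08 TPM in CD4+), and Oas2 fell by 4.03 (2.54 ± 1.58 TPM in Tfr and 33.2 ± 9.60 TPM in CD4+), Ddx58 by 1.27 and Ifit2 by 1.24. Oas2 was at 14.7 ± 8.41 TPM in non-Tfh, a difference from CD4+ that was not called (-1.36 ± 0.69, edgeR adjusted p = 0.457), and neither Tfr nor Tfh was tested against non-Tfh. All of these counts moved by over 1.5 times when single libraries were left out. In Tfh against CD4+ the count was 0 without either CD4+ or either non-Tfh library, 13 without Tfh MUT (11 higher, 2 lower), where 24.4% of all genes were called, and 24 without Tfh (1 higher, 23 lower), where 40.2% were, so that the balance of directions depended on which Tfh library was kept. In Tfr against CD4+ it was 0 without either CD4+ library, 1 without either Tfr library, 2 without either non-Tfh library and 19 without either Tfh library, where 43.5% (without Tfh MUT) and 43% (without Tfh) of all genes were called. In non-Tfh against CD4+ it was 9 without Tfh MUT and 8 without Tfh, against 8.96% and 8.57% of all genes. With both the Tfh MUT and the Tfr library left out, which was decided once the data had been seen, the counts were 14 for non-Tfh (9 higher, 5 lower), 22 for Tfh (19 higher, 3 lower) and 21 for Tfr (7 higher, 14 lower). Of all genes 23.4%, 40.9% and 47.4% were called in the same 3 comparisons. Oas2 fell and Mx1 rose in each of those 3 runs.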

How the data were processed

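Expected counts, TPM and FPKM per gene were deposited for 22 libraries (RSEM gene layout, per the file headers). Expected counts are the authors' estimated reads per gene, not normalized, TPM are the authors' values scaled to transcript length and library total, and the deposited FPKM were not used. The submitters' processing notes name mm10 and the tools bedtools, RSEM, STAR and CASAVA 1.8.2, and settings are not given in the sources used here. Per the labels' protocols, poly(A) RNA was sequenced for 50 cycles.

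Groups came from the labels. Members, gene lists and comparisons were chosen with earlier results of these data known. Expected counts were rounded and fitted with edgeR 4.0.16 (R 4.3.3) by its quasi-likelihood test after TMM scaling and filterByExpr, with Benjamini-Hochberg adjustment over all genes tested and a threshold of 0.05: 8 T cell libraries with population and MUT terms, 6 B cell cultures with IL4 and LPS terms. With 1 library per label, related libraries stand in for replicates. Single-library comparisons used the rule of size (a log2(TPM + 1) difference of 1 and 10 TPM). Levels under about 1 TPM can rest on few counts, and depth does not cover spread between animals. Alternatives were DESeq2 1.42.0, limma 3.58.1, RLE size factors, no filter, other terms, other pseudocounts, minima and differences, TMM-scaled CPM and left-out libraries. Some of the tests were also run on simulated counts, drawn independently with the spread that the fits had estimated. Such a check cannot cover the lack of replicates or spread between animals. Members described in every library were Isg15, Ifit1, Irf7 and up to 8 with the largest change, called ones first, and others named were chosen after their values were seen. Tables and figures used pandas 2.3.3, numpy 2.4.6 and matplotlib 3.10.9. Promoters are from RefSeq (GRCm38.p6). A gene of the pathway lists is not reported here and is in none of their counts.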

Additional observations from a re-analysis of the deposited data

Results flagged for a closer look

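For 14 members and 1 gene of the pathway lists, the MUT difference in Tfh cells departed from that in the other 3 T cell populations by the tested interaction (edgeR adjusted p under 0.05, log2). The values were -4.16 for Ifi44, -2.77 for Oasl2, -2.76 for Oas2, -2.52 for Usp18, -2.20 for Oas1a and -2.09 for Ifit3. They were -1.79 for Ifit1, -1.76 for Rtp4, -1.69 for both Oas3 and Zbp1, and -1.62 for Parp14. They were -1.56 for Ifih1, -1.49 for Nlrc5, -1.27 for Ddx58 and -1.15 for Trim30a. Over their alternatives the adjusted p of the 14 members ran from 1.45e-15 (Parp14) to 0.152 (Trim30a). The contrast was chosen with earlier results of these data known, and it singles out the population whose pair ran opposite. Its Tfh difference is 1 library against 1, and which members were called depended on the libraries fitted, as described above. The part of the B cell transcripts that move with the Tfh and Tfr pairs in these values was not tested.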

How the results depend on the processing

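Every label has a single library numbered 1, so the replicate numbers pair nothing. The MUT test pairs the MUT and unmarked libraries of each population through its population term, which is part of the test itself. Counts below are of members called, and some shares of all genes are given first. DESeq2 called 1.17% of all genes for LPS and 9.21% for the interaction. For non-Tfh, Tfh and Tfr against CD4+ it called 9.15%, 35.5% and 38.5%. With no filter, edgeR called 1.7% for the interaction. By the rule of size, CH12 against LPS+IL4 alone had 15.1% of all genes higher and 10.6% lower. ConA at a difference of at least 2 had 5.22% higher and 3.78% lower. LPS against non-LPS cultures had 0, and 9 by DESeq2, and 0 in every run with a library left out. The interaction had 14, against 22 with no filter, 31 by DESeq2 and 9 by limma, and 0 to 32 with a library left out. MUT against unmarked had 0, and 1 without both Tfh libraries, 22 without the Tfh MUT and Tfr libraries, and 0 to 1 with a library left out. Non-Tfh against CD4+ had 0, and 1 by DESeq2, 14 without the Tfh MUT and Tfr libraries, and 0 to 9 with a library left out. Tfh against CD4+ had 4, and 7 by DESeq2, 22 without those libraries, and 0 to 24 with a library left out. Tfr against CD4+ had 4, and 8 by DESeq2, 21 without those libraries, and 0 to 19 with a library left out. By the rule of size, activated cultures against splenic B had 3, and 0 at a difference of at least 2, 18 for LPS+IL4 alone, 9 for LPS+IL21 alone, and 3 to 12 with a library left out. CH12 had 4, and 1 at a difference of at least 2, 13 against LPS+IL4 alone, and 4 to 6 with a library left out. ConA had 23, and 12 at a difference of at least 2, and 23 to 26 with a library left out. The share of member genes with the motif in a promoter, 44.0%, was 20.0% for the stricter form and 24% for TTCNNNGAA. Ifi44 in non-Tfh against CD4+ changed sign, to 0.04, without CD4+ MUT, and ranged from -1.1 to that value with a library left out. A fit left with a lone library assumes that it varies like the others, and the causes of these shifts were not tested. Of the other values for named genes, 734 kept their direction and side of the threshold, 96 fell short of it and 75 passed it anew. The 734 include genes called in neither run. For the interaction 115 of 160 values kept their side, 36 fell short and 9 passed anew. For Tfh against CD4+ these were 76, 19 and 9 of 104, and for Tfr against CD4+ 67, 20 and 17 of 104.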
